A study of Rattus norvegicus with 9 samples.

Results

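Gene expression in the vestibular epithelium of rats exposed to 3,3′-iminodipropionitrile (IDPN) for 7 weeks was compared with that of rats exposed for 3 weeks. The 6 libraries whose titles mark IDPN exposure were taken from the 9 libraries of the series, 3 for each exposure time, and no control library entered the contrast itself. All animals were male Long-Evans rats, a pigmented outbred strain, and their age is not given in the sources used here for this experiment. The IDPN-3wk and IDPN-7wk rats drank water with 20 mM IDPN over 3 weeks or 7 weeks, and the 3 Control rats drank plain water. Each library was made from the 6 cristae and 2 utricles of 1 rat, pooled before RNA extraction, so cristae and utricles cannot be told apart. The 3 Control libraries are given beside the results as a background measured in the same way. They form a single group with animals taken at each time point, so no control is matched to an exposure time. The question was what differs between an earlier and a later stage of the same chronic exposure. A difference in age at sampling cannot be told apart from the longer exposure in this contrast.

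IDPN is a nitrile toxic to the hair cells (HCs) of the inner ear, the mechanosensory cells that turn deflection of their stereocilia into a receptor potential. Vestibular HCs are of type I, encased by an afferent calyx, or of type II, and they sit among supporting cells that are joined by gap junctions. Type I and type II interferons signal through receptor-bound kinases to STAT and IRF transcription factors, which switch on a large group of interferon-stimulated genes (ISGs) with antiviral and regulatory roles. The same pathway raises major histocompatibility complex (MHC) class I molecules, which in the rat are encoded by RT1 genes and display peptides on the cell surface together with beta-2 microglobulin.

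The deposited values were estimated counts per gene, with totals of 37640956, 31100118 and 32696268 in IDPN-3wk replicates 1 to 3 and of 46007687, 46018385 and 37275081 in IDPN-7wk replicates 1 to 3. Levels are given here as CPM, TMM-normalized counts at a shared library size, for the replicates of a group in that order. A level of 3 counts in a library corresponded to 0.0611 to 0.101 CPM, a floor that covers counting error only, because the libraries carry no molecular identifiers. At equal depth, 15492 and 15387 genes were detected in IDPN-3wk replicates 1 and 2 and 15469 in Control replicate 3, against 16826 to 17315 in the other 6 libraries. All 3 IDPN-7wk libraries were among those 6, and IDPN-3wk replicate 3 was the only library of its group there. Each result below was therefore also computed with that set of libraries as a covariate, and without both IDPN-3wk libraries with fewer detected genes. The labels give a single batch for all samples. The stem of the animal code was shared by all controls, by IDPN-3wk replicates 2 and 3, by IDPN-7wk replicates 2 and 3, and by replicate 1 of both IDPN groups, and the labels do not say what it stands for.

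Between IDPN-3wk and IDPN-7wk rats, 75 of 15517 genes tested were differentially expressed (DEGs, edgeR adjusted p under 0.05 and fold change above 1.5), which is 0.483% of the genes. Of these, 54 were upregulated at 7 weeks (0.348%) and 21 downregulated (0.135%). An adjusted p under 0.05 alone was met by 78 genes (0.503%). For 2140 genes (13.8%) the unadjusted p was below 0.05, 983 of them higher (6.33%) and 1157 lower (7.46%) at 7 weeks, and over all genes tested the log2 fold change had a median of 0.00819. The median log2 fold change was 1.42 for the upregulated DEGs and -0.93 for the downregulated DEGs. All 75 DEGs had IDPN-3wk and IDPN-7wk libraries that did not overlap, as did 21% of all genes tested, 12.1% with the 7-week libraries above and 8.92% with them below. Of the 54 upregulated DEGs, 40 belonged to the gene lists described here, most of them ISGs and MHC genes. Only 5 of the 21 downregulated DEGs belonged to a list. Because whole epithelia were sequenced, fewer cells of a type and less RNA per cell cannot be told apart, and the same holds for more cells and more RNA per cell.

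DESeq2, the tool the study used, called 527 DEGs with the same thresholds, 248 higher and 279 lower, and all 75 were among them. Among the lists, it called 39 ISG effectors, 18 MHC genes and 10 macrophage markers higher. It called 5 mitochondrially encoded subunits, 5 Schwann cell markers, 4 genes of dark and transitional cells and 3 type I HC genes lower. Below, DEG means a call by edgeR unless DESeq2 is named. With edgeR the number of DEGs was 445 without IDPN-3wk replicate 3, 42 without IDPN-7wk replicate 1 and 39 without IDPN-7wk replicate 3, and 29 upregulated and 3 downregulated DEGs kept their call whichever of the 6 libraries was left out. The refits called 12 genes lower without IDPN-3wk replicate 1, 11 without IDPN-3wk replicate 2, 230 without IDPN-3wk replicate 3, 9 without IDPN-7wk replicate 1 and 6 without IDPN-7wk replicate 3. They called 215 genes higher without IDPN-3wk replicate 3, and 33 without IDPN-7wk replicate 1 or without IDPN-7wk replicate 3. With IDPN-3wk replicate 3 alone standing for the earlier time, Ifi27 and Lgals3bp were the 2 DEGs left, while all 75 fold changes kept their sign and the medians were 1.38 and -0.82. With the set of libraries as a covariate there were 37 DEGs, 34 higher and 3 lower, with medians of 1.46 and -0.85 over the same 54 and 21 genes. With the stem of the animal code as a block, where the contrast rests on replicate 1 of each IDPN group, 232 genes were DEGs, 143 higher and 89 lower. That fit called 35 of the 75 DEGs, and all 75 kept their sign. It sets IDPN-3wk replicate 1, with 15492 genes detected at equal depth, against IDPN-7wk replicate 1, with 17162. The signs kept with IDPN-3wk replicate 3 alone and with the block follow from the choice of DEGs, whose libraries did not overlap, and are not separate support. The block fit called 11 ISG effectors, 8 MHC genes, 6 complement genes and 5 macrophage markers higher. It called 6 mitochondrially encoded subunits, 5 Schwann cell markers and 4 supporting cell genes lower.

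**Figure D1:**
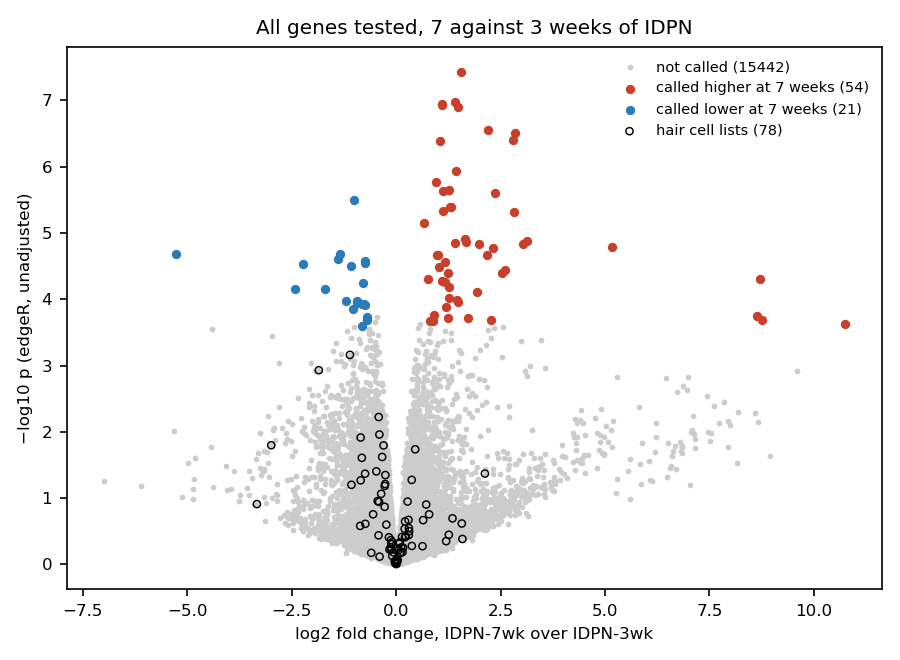
Each point is 1 of the 15517 genes tested, with the log2 fold change of IDPN-7wk over IDPN-3wk on the x axis and −log10 of the unadjusted edgeR p on the y axis. The 54 upregulated DEGs (red) reach smaller p-values than the 21 downregulated DEGs (blue), and the 78 genes of the 4 hair cell lists (open circles) include no DEG by edgeR.

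The interferon-stimulated effector genes held more DEGs than any other list. Of 68 tested members of this list, 21 were upregulated DEGs and none was a downregulated DEG, and 45 had an unadjusted p under 0.05 in the upward direction and 1 in the downward direction. The median log2 fold change of the list was 1.25. The summed level of the 68 genes was 1877, 1879 and 1704 CPM in the IDPN-3wk libraries, 4749, 3852 and 3823 CPM in the IDPN-7wk libraries and 1522, 1603 and 1782 CPM in the Control libraries. The IDPN-3wk sums lay near the controls, and every IDPN-7wk sum was above every other library.

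Ifi27 (ENSRNOG00000009263), which encodes a small interferon-induced membrane protein, had the smallest p of all genes. Its level was 209, 191 and 166 CPM at 3 weeks, 606, 552 and 512 CPM at 7 weeks and 137, 146 and 148 CPM in the controls. The log2 fold change was 1.56 ± 0.11 (SE) between the exposure times (edgeR adjusted p = 3.96e-04). Lgals3bp (ENSRNOG00000003217), a secreted glycoprotein that binds galectins, measured 67.3, 36.2 and 40.5 CPM at 3 weeks and 378, 328 and 288 CPM at 7 weeks (log2 fold change 2.79 ± 0.24, edgeR adjusted p = 6.96e-04). These 2 genes remained DEGs in every alternative tried. Rtp4 (ENSRNOG00000028895), a receptor transporter protein induced by interferon, measured 22.1, 18.2 and 16.6 CPM at 3 weeks and 108, 77.7 and 75.9 CPM at 7 weeks, a 4.60-fold difference (edgeR adjusted p = 6.96e-04).

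Isg15, a ubiquitin-like protein, is attached to other proteins through the activating enzyme Uba7 and removed by the protease Usp18, and all 3 were upregulated. Isg15 measured 2.86, 7.64 and 4.92 CPM at 3 weeks and 53.5, 38.8 and 42.5 CPM at 7 weeks (log2 fold change 3.13 ± 0.40, edgeR adjusted p = 0.00888). Usp18 measured 16.4, 10.3 and 7.16 CPM at 3 weeks and 111, 79.6 and 85.3 CPM at 7 weeks (log2 fold change 3.02 ± 0.39). For Usp18 the lowest IDPN-3wk library was replicate 3, which has the larger number of detected genes. All 3 IDPN-3wk libraries lay above the controls, which measured 2.35, 5.67 and 6.42 CPM. The lowest IDPN-7wk library was several times above the highest IDPN-3wk library. Uba7 showed a smaller difference, from 11.7 ± 2.77 CPM to 37.3 ± 4.47 CPM (mean ± SD, n = 3 in each group), a 3.19-fold change.

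The oligoadenylate synthetases, which make the messenger that activates RNase L, contributed Oas1a, Oas1i and Oas2. Oas1a measured 14.0, 20.2 and 11.6 CPM at 3 weeks and 95.4, 68.7 and 65.7 CPM at 7 weeks, a log2 fold change of 2.33 ± 0.30. Oas1i measured 3.38, 3.47 and 2.03 CPM at 3 weeks and 17.0, 20.3 and 25.2 CPM at 7 weeks, a log2 fold change of 2.81 ± 0.32. Neither gene overlapped between the exposure times. Oas2 had no count in any IDPN-3wk library and 7.37, 5.53 and 4.05 CPM in the IDPN-7wk libraries, at least 61.7-fold higher when set against a floor of 3 counts per IDPN-3wk library. The call of Oas2 was lost when any library other than IDPN-3wk replicate 3 was left out (edgeR adjusted p = 0.048 with all libraries). Oas1a, Oas1i and the other members of this family have similar sequences, so how their reads were shared out is uncertain.

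Other upregulated effectors act on RNA, on membranes or on intracellular pathogens. Mx2, a dynamin-like GTPase, measured 23.4, 50.8 and 20.8 CPM at 3 weeks and 241, 154 and 179.9 CPM at 7 weeks (log2 fold change 2.60 ± 0.37). Rsad2 (viperin), which makes a chain-terminating nucleotide, measured 14.4, 9.09 and 9.59 CPM at 3 weeks and 71.2, 57.6 and 62.6 CPM at 7 weeks (log2 fold change 2.53 ± 0.37). Ifit1, which binds foreign RNA caps, measured 6.13, 6.67 and 6.80 CPM at 3 weeks and 38.6, 26.7 and 22.6 CPM at 7 weeks. The IDPN-3wk mean of Ifit1 was below the Control mean of 9.51 ± 3.25 CPM, while the IDPN-7wk libraries were all above the controls. Ifitm3, which blocks virus entry at endosomes, measured 94.8, 102 and 99.3 CPM at 3 weeks and 279.5, 209 and 228 CPM at 7 weeks. It was 1 of the 4 upregulated DEGs that were already DEGs above control at 3 weeks by edgeR, the others being Il17rb, Tmem176a and Ctgf. Eif2ak2 (PKR), a kinase that stops translation when it binds double-stranded RNA, changed from 66.8 ± 11.3 to 133 ± 7.77 CPM, a 1.98-fold difference. The study, which used DESeq2, also reports Ifi27, Usp18, Oas1a and Eif2ak2 as upregulated at 3 weeks. In each of these genes every IDPN-3wk library lay above every control. The immunity-related GTPases Irgm and Igtp and the guanylate-binding protein Gbp2 had log2 fold changes of 1.64 ± 0.21, 1.09 ± 0.16 and 1.99 ± 0.26. Ifi27l2b rose the most among the effectors with counts in every library, from 2.04, 0.370 and 0.799 CPM to 65.0, 24.2 and 28.8 CPM (log2 fold change 5.17 ± 0.68), and its reads may be shared with its paralog Ifi27. Lgals9 (galectin-9), Ifi44 and Parp9, an ADP-ribosyltransferase partner, were upregulated with log2 fold changes of 1.23, 1.17 and 1.45.

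Of the 21 ISG calls, 13 held whichever library was left out, and those of Mx2, Rsad2, Eif2ak2, Lgals9, Igtp, Ifi44, Parp9 and Oas2 did not. The list held 15 upregulated DEGs with the set of libraries as a covariate, 2 without both IDPN-3wk libraries with fewer detected genes, where its median was 1.23, and 13 without IDPN-7wk replicate 1.

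Promoters of the upregulated genes were read from RefSeq (build GRCr8) to show a sequence feature that the calls did not use. The interferon-stimulated response element, the site that STAT and IRF complexes are known to bind, was searched as a pair of GAAA words with any 2 bases (NN) between them, on both strands, from 250 bases before to 50 bases after each start. A promoter was found for 41 of the 54 upregulated DEGs, and 18 of these (43.9%) held the letters, against 4.12% of the 27457 genes of the table, counted in the same way as genes with at least 1 promoter that held them (3.92% of all 33469 promoters). The 27457 genes are not limited to those tested for expression, and the share among tested genes was not computed. None of the 15 downregulated DEGs with a promoter in the table held the letters. Of the 21 called ISG effectors, 14 had a promoter in the table, and 12 of these (85.7%) held the letters. Among effectors that were not called, 24 of 43 with a promoter (55.8%) held them. Among the MHC genes, 4 of 11 called genes (36.4%) and 7 of 26 that were not called (26.9%) held them. Another pattern, TTCCNGGAA, a form of the STAT site that was counted separately and can share bases with the first, was found for 1 of the 41 genes (2.44%) and for 1.39% of the genes of the table. A match of letters describes the sequence and does not show a bound site. Stretches of 90 bases are printed for 8 upregulated genes, each read along the strand of its gene, with the match in capitals. Oas1i and Oas1a each hold a pair of matches that overlap by 4 bases, and Gbp2 holds the match on the opposite strand.
Ifi27, chr6:128355103-128355192, + strand: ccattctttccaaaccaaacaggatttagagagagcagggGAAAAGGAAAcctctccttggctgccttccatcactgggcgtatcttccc
B2m, chr3:129549140-129549229, + strand: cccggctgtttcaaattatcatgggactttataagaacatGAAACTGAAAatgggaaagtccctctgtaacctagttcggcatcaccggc
Lgals3bp, chr10:104127849-104127938, - strand: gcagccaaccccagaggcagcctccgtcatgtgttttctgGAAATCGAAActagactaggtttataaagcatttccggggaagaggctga
Ifitm3, chr1:205541753-205541842, - strand: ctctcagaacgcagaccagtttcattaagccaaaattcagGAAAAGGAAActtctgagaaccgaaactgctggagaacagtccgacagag
Oas1i, chr12:41285150-41285239, + strand: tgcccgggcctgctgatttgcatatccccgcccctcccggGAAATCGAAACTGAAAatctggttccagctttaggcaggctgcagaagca
Irgm, chr10:33742563-33742652, - strand: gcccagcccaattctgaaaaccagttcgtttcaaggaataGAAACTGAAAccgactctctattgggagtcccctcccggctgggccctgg
Gbp2, chr2:234005656-234005745, + strand: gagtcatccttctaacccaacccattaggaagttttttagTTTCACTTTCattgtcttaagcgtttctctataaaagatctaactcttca
Oas1a, chr12:41330385-41330474, + strand: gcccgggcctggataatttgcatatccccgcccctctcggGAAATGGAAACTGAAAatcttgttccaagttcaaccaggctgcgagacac

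The interferon ligands themselves were at or near 0. Of 11 ligand genes in the table, picked by symbol after the data were seen, none passed the filter on low counts, and 6 of them, Ifnb1 and Ifng among them, had 0 counts in all 9 libraries. A count of 0 allows a level of up to 0.101 CPM in the shallowest library. Among 30 tested receptors, kinases, STATs and IRFs, 3 were upregulated DEGs, 10 had an unadjusted p under 0.05 upward and 1 downward, and the median log2 fold change was 0.38. Stat2 (ENSRNOG00000031081), a transcription factor of the pathway, measured 49.0, 53.7 and 58.6 CPM at 3 weeks and 173, 135 and 125 CPM at 7 weeks, against 63.4, 60.1 and 55.1 CPM in the controls (log2 fold change 1.43 ± 0.14, edgeR adjusted p = 0.00179). Irf7, which amplifies the response, measured 36.2, 16.9 and 15.1 CPM and 151, 95.5 and 85.3 CPM (log2 fold change 2.28 ± 0.40, edgeR adjusted p = 0.0445). In Irf7 the highest IDPN-3wk library was replicate 1, and the groups still did not overlap. The call of Irf7 was lost without IDPN-3wk replicate 2 and without each of the IDPN-7wk replicates, with log2 fold changes from 1.61 to 2.93 over all alternatives. Irf9, a DNA-binding partner of Stat2, measured 73.8, 72.5 and 48.1 CPM and 124, 119 and 121 CPM and did not pass the test (log2 fold change 0.90 ± 0.19, edgeR adjusted p = 0.0774).

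Sensors of foreign or misplaced nucleic acids had a median log2 fold change of 0.87 over 16 tested genes, with no DEG and with 7 genes at an unadjusted p under 0.05, all upward. Dhx58, a regulator of RNA helicase sensing, came closest to the threshold, with 24.7, 6.40 and 16.8 CPM at 3 weeks and 91.9, 58.9 and 69.7 CPM at 7 weeks (edgeR adjusted p = 0.0518). Ikbke, a kinase downstream of these sensors, measured 1.83 ± 1.01 and 6.82 ± 2.96 CPM (edgeR adjusted p = 0.143), and its Control mean of 6.21 ± 1.86 CPM was closer to the later time.

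MHC class I genes and the machinery that loads them with peptide formed the other large upregulated group. Of 42 tested members, 11 were upregulated DEGs and none was downregulated, 22 had an unadjusted p under 0.05 and all of these were higher at 7 weeks, and the median log2 fold change was 1.11. The summed level was 3602, 3833 and 3719 CPM at 3 weeks, 6118, 5757 and 5790 CPM at 7 weeks and 3906, 3641 and 3993 CPM in the controls. The 3-week sums lay within or just below the range of the controls.

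B2m (ENSRNOG00000017123), the light chain shared by all class I molecules, measured 415, 386 and 387 CPM at 3 weeks, 898, 846 and 796 CPM at 7 weeks and 399.7, 395 and 447 CPM in the controls (log2 fold change 1.10 ± 0.084, edgeR adjusted p = 3.96e-04). The IDPN-3wk and Control libraries overlapped for B2m, and the IDPN-7wk libraries lay apart from both. RT1-A2 (ENSRNOG00000030712), a classical class I heavy chain, measured 271, 272 and 256 CPM at 3 weeks and 802, 713 and 614 CPM at 7 weeks (log2 fold change 1.41 ± 0.11, edgeR adjusted p = 3.96e-04). RT1-A1 measured 89.7, 114 and 93.5 and 241, 218 and 184 CPM, a 2.16-fold difference. The RT1-CE genes RT1-CE1, RT1-CE4, RT1-CE5, RT1-CE7 and RT1-CE10 were upregulated as well, with log2 fold changes of 1.03, 1.13, 1.27, 1.09 and 1.32. RT1 genes are close copies of each other and differ between rat strains, so the level of each single RT1 gene is uncertain, while B2m is a single gene outside that cluster.

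Tap1, which carries peptides into the endoplasmic reticulum, measured 20.7, 26.6 and 23.0 CPM at 3 weeks and 48.2, 43.4 and 37.8 CPM at 7 weeks. Tapbp (tapasin), which holds class I molecules at that transporter, measured 90.5, 116 and 109 CPM at 3 weeks and 183, 184 and 166 CPM at 7 weeks. Psmb8, a catalytic subunit of the immunoproteasome, measured 10.4, 10.9 and 14.2 CPM and 30.9, 29.0 and 25.6 CPM. Their log2 fold changes were 0.88 ± 0.16, 0.76 ± 0.11 and 1.27 ± 0.20, and no IDPN-7wk library overlapped with an IDPN-3wk library in any of the 3 genes. These 3 calls were lost without any of the IDPN-7wk replicates and, for Tap1 and Psmb8, without IDPN-3wk replicate 1, and that of Psmb8 also without IDPN-3wk replicate 2. The RT1-CE1 call was lost without IDPN-7wk replicate 1 or 2. The calls of B2m, RT1-A1, RT1-A2, RT1-CE4, RT1-CE5, RT1-CE7 and RT1-CE10, 7 of the 11, held whichever library was left out. With the set of libraries as a covariate the list held 7 DEGs, as it did without IDPN-7wk replicate 1 and without IDPN-7wk replicate 2. Without both IDPN-3wk libraries with fewer detected genes it held 0, with a median of 1.09.

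Complement factor B (Cfb, ENSRNOG00000051158), the protease of the alternative pathway, was upregulated. It measured 1125, 984 and 1075 CPM at 3 weeks, 2348, 2189 and 2086 CPM at 7 weeks and 1087, 961 and 1142 CPM in the controls (log2 fold change 1.06 ± 0.092, edgeR adjusted p = 6.96e-04). C1r, a protease of the first component, changed from 52.6 ± 8.84 to 91.9 ± 10.5 CPM (edgeR adjusted p = 0.0445), a call lost without IDPN-3wk replicate 1 and without each of the IDPN-7wk replicates. Over 26 tested complement genes, 2 were DEGs, 10 had an unadjusted p under 0.05, all upward, and the median log2 fold change was 0.51, which became 0.87 without both IDPN-3wk libraries with fewer detected genes. The number of complement DEGs was 4 without IDPN-3wk replicate 2 and 1 without IDPN-3wk replicate 1 or any of the IDPN-7wk replicates.

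**Figure D2:**
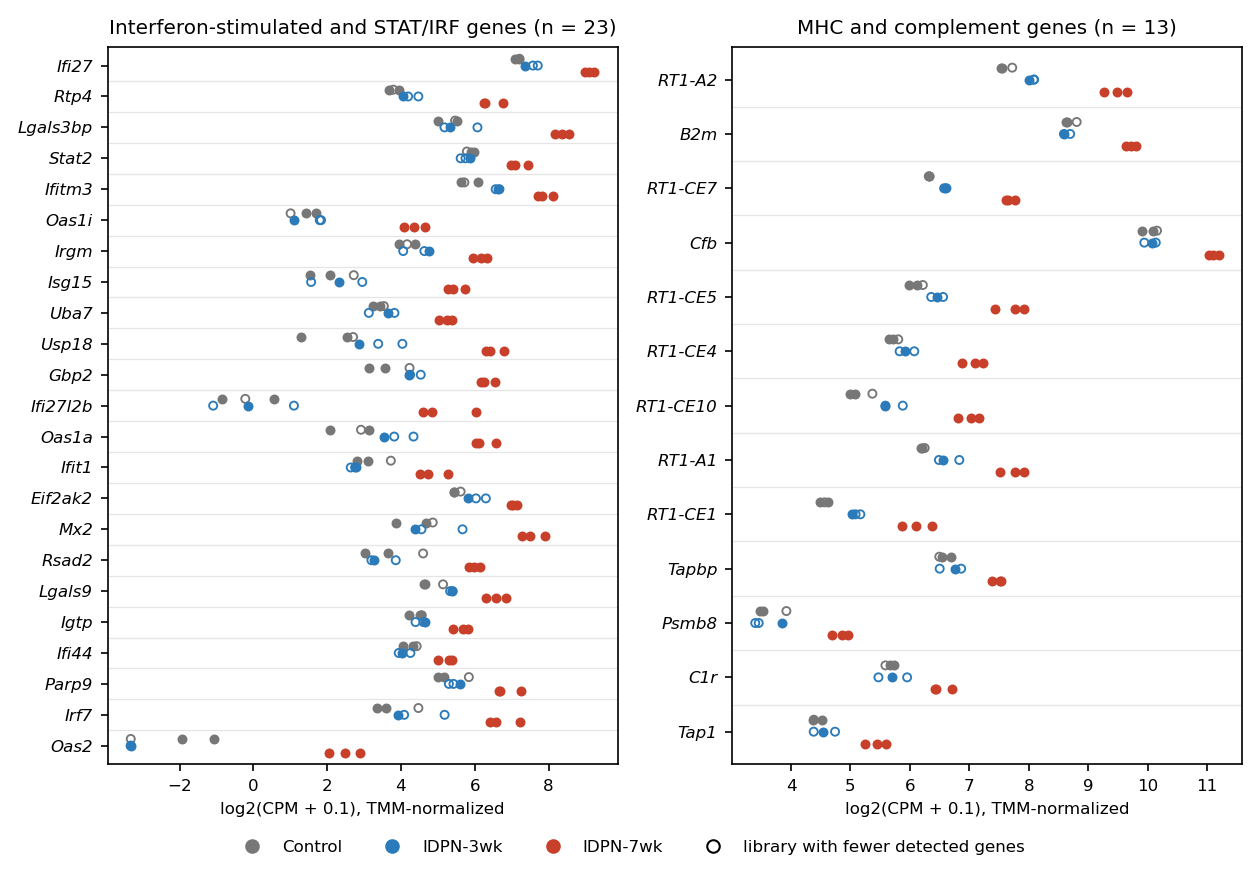
Levels of 23 upregulated ISG, STAT and IRF genes (left) and of the 13 upregulated MHC and complement genes (right) as log2(CPM + 0.1) in each of 9 libraries, with Control in grey, IDPN-3wk in blue and IDPN-7wk in red, and with open circles for libraries with fewer detected genes. The 3 IDPN-7wk points lie to the right of the 3 IDPN-3wk points for every gene, and the IDPN-3wk points lie near the controls for most of them.

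Outside the gene lists stood 14 upregulated DEGs. Il17rb (ENSRNOG00000015498), a receptor subunit for interleukin-25, measured 30.7, 24.8 and 29.7 CPM at 3 weeks, 288, 182 and 144 CPM at 7 weeks and 12.7, 10.6 and 13.7 CPM in the controls, so it lay above control at 3 weeks and rose a further 7.20-fold (log2 fold change 2.85 ± 0.24, edgeR adjusted p = 6.96e-04). Smarca1, an ATPase of ISWI chromatin remodelling complexes, measured 25.1, 17.9 and 36.4 CPM at 3 weeks and 154, 118 and 137 CPM at 7 weeks. The Smarca1 level of every IDPN-3wk library was below every control (41.5, 36.9 and 53.3 CPM), and every IDPN-7wk library was above them (log2 fold change 2.36 ± 0.25, edgeR adjusted p = 0.00279). Tmem176a, a membrane protein, stepped up at both times, from 123 ± 7.08 CPM in the controls to 187 ± 16.5 CPM at 3 weeks and 361 ± 25.2 CPM at 7 weeks.

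No count was found in any IDPN-3wk library for 3 DEGs. Besides Oas2 these were Selplg, the P-selectin ligand of leukocytes, and Adcy10, the soluble adenylyl cyclase. Selplg measured 1.34, 1.32 and 1.29 CPM at 7 weeks, at least 14.4-fold above the floor of 3 counts per library, and 1.43, 0.564 and 0.929 CPM in the controls, so its 7-week levels lay within the range of the controls. Adcy10 measured 1.77, 1.19 and 1.34 CPM at 7 weeks, at least 15.7-fold above that floor, and 0.270, 0.251 and 0.141 CPM in the controls. Clca4l, a chloride channel regulator, had 1 count in the IDPN-3wk libraries and 2.69, 8.14 and 6.05 CPM at 7 weeks, and a fold is not given because it would rest on that count. The calls of Selplg and Adcy10 were lost when any library other than IDPN-3wk replicate 3 was left out, and that of Clca4l without IDPN-7wk replicate 2 or 3.

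Lists of tissue injury and stress held 3 more upregulated DEGs. Lcn2, a siderophore-binding lipocalin, measured 847, 726 and 641 CPM at 3 weeks, 1989, 1319 and 1681 CPM at 7 weeks and 1110, 875 and 1096 CPM in the controls, so the 3-week libraries lay below the controls and the 7-week libraries above them (edgeR adjusted p = 0.0118). Ctgf, a matricellular protein, measured 223, 140.4 and 194, then 481, 469.9 and 672 and then 1582, 984 and 1262 CPM in the Control, IDPN-3wk and IDPN-7wk libraries, and the 3 groups did not overlap (log2 fold change 1.24 ± 0.22 between the exposure times). Nupr1, a small stress-induced nuclear protein, changed from 9.80 ± 4.05 to 32.3 ± 0.975 CPM. The Lcn2 call was lost without IDPN-3wk replicate 2 and without IDPN-7wk replicate 3, and those of Ctgf and Nupr1 without 4 of the 6 libraries each. The stress transcription factor Atf3 measured 5.64, 5.99 and 4.27 CPM at 3 weeks and 16.4, 11.1 and 12.7 CPM at 7 weeks and did not pass the test (edgeR adjusted p = 0.0922). Atf4, the main factor of the integrated stress response, measured 168 ± 25.5 and 180.0 ± 36.0 CPM, which overlapped, and its fold change was downward without IDPN-7wk replicate 1. Cebpb, another transcription factor, measured 8.48, 3.06 and 0.154 CPM at 3 weeks and 0.326, 1.44 and 1.97 CPM at 7 weeks, and its fold change turned from -1.65 to 2.99 on the log2 scale without both IDPN-3wk libraries with fewer detected genes. Over 28 immediate early genes the median log2 fold change was 0.41 and 10 genes had an unadjusted p under 0.05 upward, and over 26 keratin and epithelial injury genes the median was 0.58 with 12 such genes.

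A further 8 upregulated DEGs fell outside the naming rule and are named after their values were seen. They were Tmem176b, the neighbour of Tmem176a, with 353 ± 9.02 and 562 ± 44.3 CPM, the choline dehydrogenase Chdh with 49.5 ± 5.16 and 132 ± 33.9 CPM, and mesothelin (Msln) with 112 ± 23.0 and 269.7 ± 64.2 CPM. The others were Fcmr, an Fc receptor for IgM, with 3.16 ± 0.716 and 12.1 ± 2.13 CPM, the glycosyltransferase Extl1 with 62.0 ± 21.2 and 172 ± 34.9 CPM, and Pml, the scaffold of PML nuclear bodies, with 42.1 ± 7.98 and 79.4 ± 10.8 CPM. The unnamed protein-coding gene AABR07044404.1 measured 12.2 ± 0.716 and 27.8 ± 5.92 CPM, and AABR07044421.1, annotated as an unprocessed pseudogene, 29.4 ± 0.441 and 82.5 ± 6.89 CPM. Those of Tmem176b, Chdh and AABR07044421.1 held whichever library was left out, and the other 5 were lost without at least 1 library.

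Summed levels of macrophage and lymphocyte markers were higher at 7 weeks than at 3 weeks, and their part in the ISG and MHC results was not tested. The neutrophil and erythroid list went the other way. It summed to 346, 319 and 405 CPM at 3 weeks and 219, 298 and 203 CPM at 7 weeks, mostly from haemoglobin genes. Its tested neutrophil genes S100a9 and Ngp had at most 36 counts in any library. None of 26 tested macrophage and microglia markers was a DEG by edgeR, while DESeq2 called 10 of them higher. An unadjusted edgeR p under 0.05 was reached by 17 markers, all higher at 7 weeks. The median log2 fold change over the list was 1.53 (1.92 without both IDPN-3wk libraries with fewer detected genes). The summed level of the list was 169, 555 and 243 CPM at 3 weeks, 922, 742 and 681 CPM at 7 weeks and 355, 276 and 400.2 CPM in the controls. The IDPN-3wk sums spread more than the controls, and IDPN-3wk replicate 2 was the highest of that group. Adgre1 (F4/80) had the smallest p of the list, with 5.61, 2.02 and 2.40 CPM at 3 weeks and 19.3, 9.42 and 16.3 CPM at 7 weeks (edgeR adjusted p = 0.0662). C1qc, a complement chain made by macrophages, measured 4.41, 18.1 and 9.50 CPM at 3 weeks and 41.5, 36.5 and 31.2 CPM at 7 weeks (edgeR adjusted p = 0.107). P2ry12, a marker of microglia, had 0 counts in all IDPN-3wk libraries and did not pass the filter.

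Of 20 lymphocyte markers in the table, 6 passed the filter on low counts. Their sum was 9.65, 12.4 and 10.6 CPM at 3 weeks, 33.8, 22.5 and 19.7 CPM at 7 weeks and 13.5, 12.7 and 10.4 CPM in the controls. Cd8a, Il2rb and Ccl5 had at most 18 counts in any Control or IDPN-3wk library. With 24 to 116 counts in the IDPN-7wk libraries, they passed the filter through that group, which by itself favours a higher sum at 7 weeks. Cd4, which rat macrophages also carry, was the largest part of the 7-week sums. It measured 1.20, 5.99 and 3.72 and 22.0, 10.2 and 9.24 CPM (edgeR adjusted p = 0.167). Ccl5, a chemokine of T and NK cells, measured 0, 0.0337 and 0.215 and 2.36, 1.52 and 1.60 CPM (edgeR adjusted p = 0.167). Of the markers that did not pass, Cd3d, Cd5, Cd27, Gzma, Ms4a1 and Prf1 had 0 counts in every IDPN-3wk library, and Ms4a1, a B cell marker, had 0 counts in every IDPN-7wk library too. Endothelial markers, by comparison, summed to 670.1, 802 and 715 CPM at 3 weeks and 551, 807 and 719.9 CPM at 7 weeks, with a median log2 fold change of -0.039 over 16 genes (0.0039 without both IDPN-3wk libraries with fewer detected genes).

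**Figure D3:**
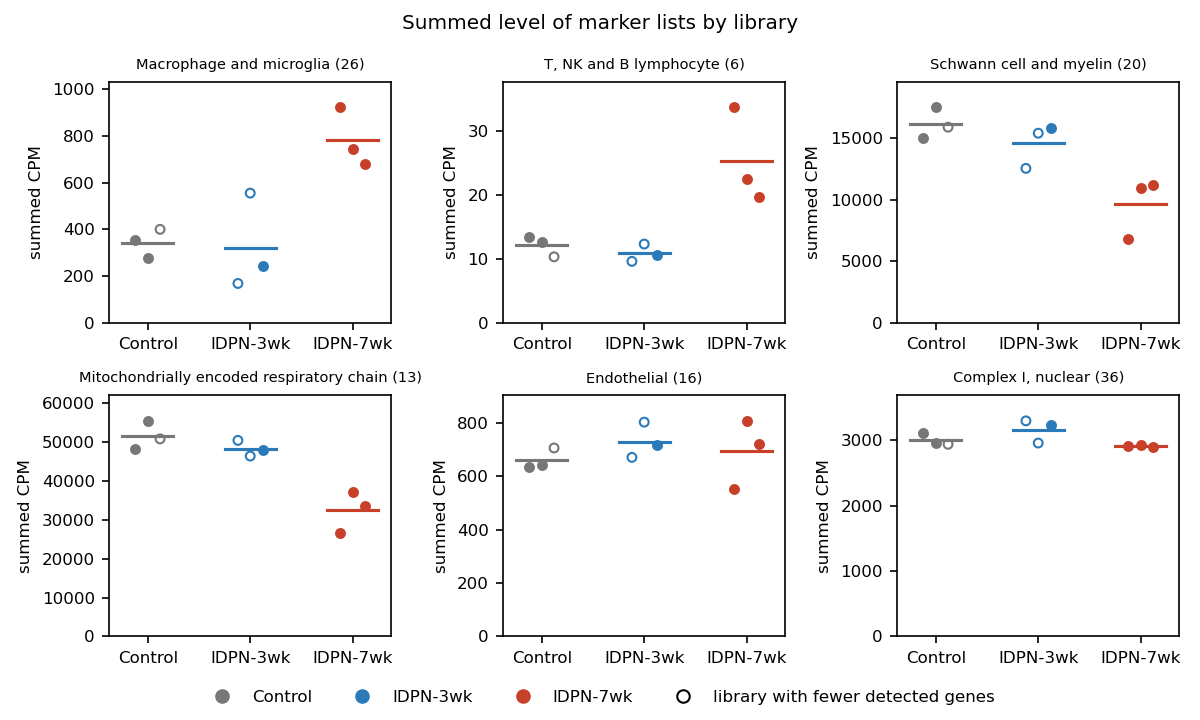
Summed CPM of 6 gene lists in each library, with the number of tested genes in parentheses, horizontal bars at group means and open circles for libraries with fewer detected genes. The macrophage sums run from 681 to 922 CPM at 7 weeks and from 169 to 555 CPM at 3 weeks, while the Schwann cell and mitochondrially encoded sums of the IDPN-7wk libraries lie below all other libraries.

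Spp1 (ENSRNOG00000043451), which encodes osteopontin and marks type I HCs in this tissue, had the smallest p of the genes that fell between 3 and 7 weeks. It measured 5154, 4805 and 5574 CPM in the controls, 3236, 3105 and 2626 CPM at 3 weeks and 1338, 1643 and 1505 CPM at 7 weeks, so the 3 groups were apart in the order of exposure (log2 fold change -1.0 ± 0.11, edgeR adjusted p = 0.00326). Klk1b3, a kallikrein protease, measured 2.75, 5.32 and 2.28 CPM at 3 weeks and 0.0407, 0.164 and 0.0506 CPM at 7 weeks, where IDPN-7wk replicates 1 and 3 lay below the floor of 3 counts (log2 fold change -5.27 ± 0.70). The Klk1b3 call was lost without IDPN-7wk replicate 1 or 3.

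Genes of the extracellular matrix and of secretion were among the downregulated DEGs. Adamts2, which trims procollagens, measured 71.0, 59.8 and 58.3 CPM at 3 weeks and 17.0, 29.8 and 24.7 CPM at 7 weeks (log2 fold change -1.40 ± 0.19). Acan (aggrecan), a large matrix proteoglycan, measured 16.2, 15.8 and 13.2 CPM at 3 weeks and 3.61, 4.07 and 2.00 CPM at 7 weeks (log2 fold change -2.22 ± 0.31). Both were also lower at 3 weeks than the Control means of 90.9 ± 8.17 and 27.1 ± 7.54 CPM. Scg5, a chaperone of the prohormone convertase PC2, fell at both steps, from 113 ± 14.6 CPM in the controls to 72.8 ± 4.70 and 42.2 ± 2.17 CPM. Qpct, which cyclizes N-terminal glutamine of secreted peptides, followed another course. It measured 29.8 ± 1.55 CPM in the controls, 56.8 ± 5.99 CPM at 3 weeks and 26.9 ± 4.06 CPM at 7 weeks, and it was the 1 gene that was a DEG above control at 3 weeks and fell back by 7 weeks (edgeR adjusted p = 0.0124 between the exposure times). The call of Adamts2 was lost without IDPN-7wk replicate 3, those of Acan and Qpct without IDPN-7wk replicate 1, and that of Scg5 without any library other than IDPN-3wk replicate 3.

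Sema5a and Pcdhb19 were lower at 3 weeks than in the controls and lower again at 7 weeks. Sema5a, a guidance protein, measured 184, 216 and 187 CPM in the controls, 80.0, 78.2 and 74.8 CPM at 3 weeks and 27.1, 46.5 and 40.3 CPM at 7 weeks (log2 fold change -1.03 ± 0.17 between the exposure times). Pcdhb19, a clustered protocadherin, measured 16.0, 15.4 and 9.23 CPM in the controls, 3.16, 3.40 and 2.18 CPM at 3 weeks and 0.570, 0.658 and 0.380 CPM at 7 weeks (log2 fold change -2.43 ± 0.38). The 3 groups were apart for both genes. Both were DEGs below control at 3 weeks as well as at 7 weeks, as were Spp1 and Scg5. Pcdhb19 was the only DEG of 69 tested cadherins and protocadherins, and the Pcdhb genes are close copies, so its reads are uncertain. Gjb6 (connexin 30), a gap junction protein of supporting cells, measured 1292, 1485 and 1495 CPM at 3 weeks and 783, 962 and 905 CPM at 7 weeks, with 1783, 1556 and 2066 CPM in the controls (log2 fold change -0.69 ± 0.12, edgeR adjusted p = 0.0426). The Gjb6 call was lost when any library other than IDPN-3wk replicate 3 was left out, that of Sema5a without IDPN-3wk replicate 1 or 2 or IDPN-7wk replicate 3, and that of Pcdhb19 without IDPN-3wk replicate 1 or any of the IDPN-7wk replicates.

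The other downregulated DEGs encode transporters, signalling proteins and enzymes. Slc13a3, a sodium-dicarboxylate transporter, measured 223, 173 and 195 CPM in the controls, 193, 199 and 192 CPM at 3 weeks and 111, 115 and 122 CPM at 7 weeks, and the Control and IDPN-3wk libraries overlapped. Mlc1, a glial membrane protein, changed from 10.9 ± 2.40 to 3.38 ± 0.354 CPM and Wnt7a, a secreted signalling protein, from 57.0 ± 7.95 to 24.7 ± 6.32 CPM. Ramp3, a partner of peptide hormone receptors, changed from 62.2 ± 2.71 to 37.0 ± 4.35 CPM, Ndrg1, a stress-responsive gene needed by Schwann cells, from 684 ± 66.0 to 359.6 ± 81.0 CPM, and Mical1, an enzyme that oxidizes actin, from 68.1 ± 7.46 to 38.4 ± 4.32 CPM. The calls of these 6 genes were each lost under at least 2 of the 6 omissions of a library, all of them under that of IDPN-7wk replicate 3. Named after their values were seen, Ptgds, a prostaglandin D synthase, changed from 14963 ± 504 to 8465 ± 1226 CPM and Mycbpap from 99.3 ± 12.1 to 61.3 ± 3.48 CPM.

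**Figure D4:**
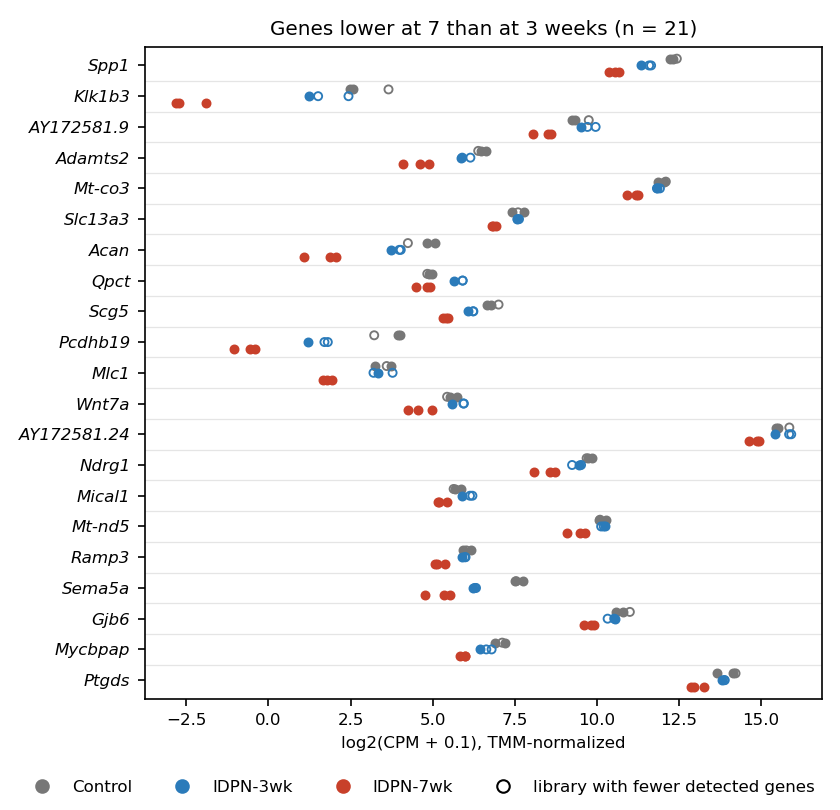
Levels of the 21 downregulated DEGs as log2(CPM + 0.1) in each library, with Control in grey, IDPN-3wk in blue and IDPN-7wk in red, and with open circles for libraries with fewer detected genes. The IDPN-7wk points lie to the left of the IDPN-3wk points for every gene, and for Sema5a, Spp1 and Scg5 the IDPN-3wk points lie between the other groups.

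Transcripts of the mitochondrial genome took a smaller share of the counts at 7 weeks. They made up 11.1%, 10.2% and 9.27% of the counts in the IDPN-3wk libraries, 5.64%, 7.30% and 6.78% in the IDPN-7wk libraries and 9.33%, 10.0% and 10.4% in the controls. Among the 13 mitochondrially encoded subunits of the respiratory chain, all 13 fold changes were downward (51.1% of all genes had an upward one), 2 genes were downregulated DEGs, 10 had an unadjusted p under 0.05, and the median log2 fold change was -0.51. Mt-co3, a subunit of cytochrome c oxidase, measured 3900, 3663 and 3653 CPM at 3 weeks, 1938, 2436 and 2365 CPM at 7 weeks and 3752, 4210 and 4417 CPM in the controls (log2 fold change -0.73 ± 0.10, edgeR adjusted p = 0.0118). Mt-nd5, a subunit of complex I, measured 1127, 1191 and 1213 CPM at 3 weeks and 549, 799.6 and 719.8 CPM at 7 weeks (log2 fold change -0.77 ± 0.13), a call lost without IDPN-3wk replicate 1 or 2 or IDPN-7wk replicate 3. Mt-nd4, of the same complex, measured 4196 ± 179 and 2694 ± 449.9 CPM without passing the test (edgeR adjusted p = 0.0561). The mitochondrial rRNAs AY172581.9 and AY172581.24, named after their values were seen, were DEGs as well, with log2 fold changes of -1.34 ± 0.18 and -0.93 ± 0.15. Mitochondrial transcripts share sequence with nuclear copies, and oligo-dT priming of rRNA is incidental, so these levels are uncertain.

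Nuclear genes of the same complexes had medians closer to 0. Over 36 nuclear genes of complex I the median log2 fold change was -0.084, with 5 genes at an unadjusted p under 0.05, all downward, and no DEG. Ndufa9 had the smallest p, with 133, 134 and 130.0 CPM at 3 weeks, 109.8, 113 and 109 CPM at 7 weeks and 111, 111 and 114 CPM in the controls (edgeR adjusted p = 0.196). Ndufs4, an accessory subunit, measured 173 ± 8.53 and 151 ± 5.84 CPM (log2 fold change -0.19 ± 0.086). The medians were -0.056 for 30 genes of complexes II to IV and -0.064 for 18 genes of the ATP synthase. Without both IDPN-3wk libraries with fewer detected genes they were -0.16, -0.14 and -0.14 for complex I, complexes II to IV and the ATP synthase. With the set of libraries as a covariate the mitochondrially encoded subunits held 0 DEGs, with a median of -0.56. They held 1 DEG without IDPN-3wk replicate 1, without IDPN-3wk replicate 2 or without IDPN-7wk replicate 3, 3 without IDPN-3wk replicate 3 and 5 without IDPN-7wk replicate 2.

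Markers of Schwann cells, which myelinate the nerve fibres below the epithelium, had a lower summed level at 7 weeks. No gene of 20 was a DEG by edgeR, while DESeq2 called 5 of them lower. An unadjusted edgeR p under 0.05 was reached by 14 genes, all downward. The median log2 fold change was -0.62 (-0.79 without both IDPN-3wk libraries with fewer detected genes). The list summed to 12552, 15408 and 15798 CPM at 3 weeks, 6810, 10932 and 11191 CPM at 7 weeks and 15001, 17507 and 15897 CPM in the controls, and IDPN-7wk replicate 1 was the lowest library. Mbp, a main myelin protein, measured 1391, 1813 and 1823 CPM and 485, 1141 and 1063 CPM (edgeR adjusted p = 0.198). Ncmap, another myelin protein, measured 16.6, 19.8 and 19.2 and 6.09, 12.4 and 10.7 CPM (edgeR adjusted p = 0.172). The part of this nerve tissue in the downregulated DEGs was not tested. Genes of ion transport in dark and transitional cells, which secrete endolymph, had a median log2 fold change of -0.36 over 17 genes, with 7 downward at an unadjusted p under 0.05. Lrp2 (megalin), an endocytic receptor, measured 622 ± 119.9 and 294 ± 64.4 CPM (edgeR adjusted p = 0.0615).

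Most HC genes did not pass the test between the exposure times. The labelled tissue was checked by its HC genes, and 12 genes of mechanotransduction and tip links passed the filter on low counts, summing to 1503, 1539 and 1368 CPM at 3 weeks, 1018, 1231 and 1207 CPM at 7 weeks and 1717, 1734 and 1775 CPM in the controls. Of these 12, Pcdh15 had no count in IDPN-3wk replicate 2, and Ush1c, whose levels are given below, held most of the sum in every library. No gene of the lists of mechanotransduction (12), hair bundle (30), ribbon synapse (20) or HC transcription factors (16) was a DEG by edgeR. Their median log2 fold changes between 3 and 7 weeks were -0.11, -0.0036, -0.018 and -0.017. Without both IDPN-3wk libraries with fewer detected genes these medians were -0.12, 0.053, 0.10 and 0.073, so the last 3 turned upward. Unadjusted p-values under 0.05 were reached downward by 3, 5, 1 and 3 genes of these lists and upward by 0, 1, 1 and 0. Against the shared controls, the median log2 fold changes of the 4 lists were -0.43, -0.49, -0.50 and -0.32 at 3 weeks and -0.54, -0.47, -0.75 and -0.60 at 7 weeks.

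Ush1c (harmonin), a scaffold of the upper tip link, measured 1067, 1127 and 972 CPM at 3 weeks, 634, 882 and 853 CPM at 7 weeks and 1170, 1186 and 1115 CPM in the controls, and did not pass the test (log2 fold change -0.42 ± 0.12, edgeR adjusted p = 0.184). Cdh23, a tip link cadherin, measured 26.4, 25.2 and 12.1 and 12.2, 9.93 and 13.9 CPM, with IDPN-3wk replicate 3 inside the range of the later group (edgeR adjusted p = 0.287). Espn, an actin bundler of stereocilia, measured 158, 159.7 and 79.7 and 57.5, 59.1 and 68.0 CPM (edgeR adjusted p = 0.0774). The HC transcription factor Gfi1 measured 64.2, 74.3 and 22.6 and 13.0, 16.9 and 14.7 CPM (edgeR adjusted p = 0.0978). DESeq2 called Espn (log2 fold change -1.11, DESeq2 adjusted p = 2.12e-04) and Gfi1 (-1.86, DESeq2 adjusted p = 2.78e-04) lower. In all 3 of Cdh23, Espn and Gfi1, IDPN-3wk replicates 1 and 2, the libraries with fewer detected genes, were the high ones. Pou4f3, which HCs need for survival, measured 119 ± 9.86 and 98.4 ± 14.8 CPM, and Atoh1, which specifies HCs, 4.70 ± 0.806 and 4.21 ± 0.687 CPM, with log2 fold changes of -0.27 ± 0.13 and -0.16 ± 0.29. Cacna1d, the calcium channel of the ribbon synapse, measured 42.5, 37.7 and 36.2 and 46.0, 53.5 and 60.2 CPM against 103, 129.6 and 87.5 CPM in the controls (edgeR adjusted p = 0.256).

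Spp1 was the only DEG by edgeR of 15 tested type I HC genes between the exposure times, while DESeq2 called 3 of them lower. Spp1 included, 6 of the 15 had an unadjusted p under 0.05, all downward, and the median log2 fold change was -0.21 (-0.39 without both IDPN-3wk libraries with fewer detected genes and -0.38 with the covariate). The sum of the 15 genes, Spp1 included, was 9565, 9510 and 9966 CPM in the controls, 5505, 6093 and 5223 CPM at 3 weeks and 2830, 3577 and 3419 CPM at 7 weeks, and the 3 groups did not overlap. The 6 tested type II HC genes had a median of 0.22 (0.12 without both those libraries), and Anxa4 measured 282, 332 and 315 and 424, 346 and 359.8 CPM (edgeR adjusted p = 0.256). The 34 genes that the study lists as downregulated in all of its ototoxicity models, a list chosen in part on these libraries and so not independent evidence, had a median log2 fold change of -1.10 at 3 weeks and -1.42 at 7 weeks against the shared controls. Between 3 and 7 weeks their median was -0.16 (-0.25 without both IDPN-3wk libraries with fewer detected genes). None was a DEG by edgeR, while DESeq2 called Bmp2, Hs3st2 and Cdh18 lower. An unadjusted edgeR p under 0.05 was reached by 11 genes, all downward. Bmp2, a growth factor of that list, measured 39.8, 40.0 and 49.4 CPM in the controls, 10.7, 17.9 and 14.0 CPM at 3 weeks and 7.66, 7.69 and 8.68 CPM at 7 weeks (edgeR adjusted p = 0.139 between the exposure times). Anxa1, a calcium-dependent phospholipid-binding protein, was a DEG above control at both times and measured 1692 ± 429 and 1561 ± 229.6 CPM, which differed by less than the spread between libraries, with the higher group turning to IDPN-7wk without IDPN-3wk replicate 2.

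For lists without a DEG, members with the smallest p are given as values. Among supporting cell genes, Gjb6 was the 1 DEG of 23, and an unadjusted edgeR p under 0.05 was reached downward by 6 and upward by 2. The 23 genes summed to 18951, 18881 and 19162 CPM in the controls and to 12695, 15421 and 12921 CPM at 3 weeks. At 7 weeks they summed to 9344, 11939 and 11210 CPM, and the 3 groups did not overlap. The list median was -0.059 (-0.12 without both IDPN-3wk libraries with fewer detected genes). In the otolithic membrane list (20 genes, median -0.12, or -0.071 without those libraries), the tectorin Tectb measured 221 ± 62.2 and 109 ± 27.8 CPM and the matrix protein Mia 535 ± 58.7 and 394 ± 47.3 CPM. Coch (cochlin), an abundant inner ear matrix protein of the fibroblast list (22 genes, median 0.014, or -0.075 without them), passed the adjusted p but not the fold threshold, with 18751, 21368 and 17853 CPM at 3 weeks and 13324, 14049 and 14487 CPM at 7 weeks (log2 fold change -0.47 ± 0.082, edgeR adjusted p = 0.0426). Mgp, a matrix protein that limits calcification, measured 53.4 ± 5.20 and 105 ± 24.9 CPM (edgeR adjusted p = 0.0663).

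Metabolic lists had medians slightly below 0. Over 22 glycolysis genes the median was -0.14, with 6 genes at an unadjusted p under 0.05, all downward. Ldhb, a lactate dehydrogenase subunit, measured 869 ± 28.8 and 639 ± 48.5 CPM (edgeR adjusted p = 0.0564), and Pfkm, a phosphofructokinase, 221 ± 16.9 and 155 ± 13.6 CPM (edgeR adjusted p = 0.0634). Over 23 cholesterol synthesis genes the median was -0.14 (-0.30 without both IDPN-3wk libraries with fewer detected genes), with 7 downward. Msmo1, a sterol oxidase of that pathway, measured 191 ± 8.34 and 139 ± 6.71 CPM (edgeR adjusted p = 0.0764). Of 39 NRF2 and redox genes, 4 were upward and 9 downward at an unadjusted p under 0.05, and the peroxidases Gpx8 and Gpx3 had log2 fold changes of -0.63 ± 0.12 and -0.82 ± 0.18 (edgeR adjusted p = 0.0627 and 0.0939). The median of 84 cytosolic ribosomal proteins was -0.051 (0.0048 without those libraries), and that of 76 mitochondrial ribosomal proteins -0.080.

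Signalling and neuronal lists held no DEG by edgeR. Over 47 chemokines, interleukins and TNF family genes the median was 0.33 (0.26 without both IDPN-3wk libraries with fewer detected genes and 0.082 with the covariate), with 8 upward and 3 downward at an unadjusted p under 0.05. Cxcl17, a mucosal chemokine, measured 1.23, 0.774 and 0.984 CPM at 3 weeks and 7.05, 7.40 and 9.39 CPM at 7 weeks (edgeR adjusted p = 0.0627), and the TNF receptor Tnfrsf1a 61.6 ± 3.23 and 96.4 ± 10.3 CPM (edgeR adjusted p = 0.0653). Over 59 potassium channels the median was -0.19 (-0.054 without those libraries), and the channel Kcnk2 measured 2.53, 12.2 and 7.07 and 0.917, 1.42 and 0.405 CPM (edgeR adjusted p = 0.0581). Of 21 afferent neuron genes, Syt1, a calcium sensor of vesicle release, measured 13.4, 11.1 and 8.06 and 4.07, 4.44 and 5.17 CPM (edgeR adjusted p = 0.0922), and the median of that list moved from -0.28 to 0.03 without both IDPN-3wk libraries with fewer detected genes. The neurotrophin receptor Ntrk2 measured 98.4 ± 22.6 and 63.4 ± 7.06 CPM (edgeR adjusted p = 0.133) in a list of 12 neurotrophin genes with a median of -0.43, which was -0.098 without both those libraries. The haemoglobin gene Hbb, in the list of neutrophil and erythroid markers, measured 111, 100.4 and 125 CPM at 3 weeks and 63.2, 87.3 and 54.7 CPM at 7 weeks (edgeR adjusted p = 0.117), and 7 genes of that list were tested.

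The other lists had medians close to 0 and no DEG by edgeR. The median log2 fold change was -0.17 for 8 melanocyte genes, -0.15 for 29 heat shock genes and -0.14 for 19 genes of the unfolded protein response. It was -0.092 for 55 sodium, calcium, HCN and TRP channels, -0.091 for 31 genes of the BMP and TGF-beta pathway, -0.068 for 21 Notch genes and -0.050 for 63 genes of cilia. It was -0.037 for 10 pericyte genes, 0.0012 for 38 proliferation genes, 0.032 for 32 autophagy genes, 0.11 for 27 lysosome genes and 0.15 for 34 genes of p53 and apoptosis. Without both IDPN-3wk libraries with fewer detected genes the median turned to 0.13 for melanocyte genes, to 0.048 for sodium, calcium, HCN and TRP channels, to 0.020 for Notch genes and to -0.029 for autophagy genes. It was then -0.098 for heat shock genes, -0.051 for the BMP and TGF-beta pathway, -0.086 for cilia, -0.14 for pericyte genes and 0.14 for proliferation genes, the last of which measured -0.12 with the covariate. Mki67, a marker of dividing cells, measured 1.55, 3.06 and 1.23 CPM at 3 weeks and 6.36, 4.13 and 7.70 CPM at 7 weeks (edgeR adjusted p = 0.167), and Pink1, a kinase of mitophagy, 493, 488 and 178 and 77.0, 160.2 and 158 CPM (edgeR adjusted p = 0.14).

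**Figure D5:**
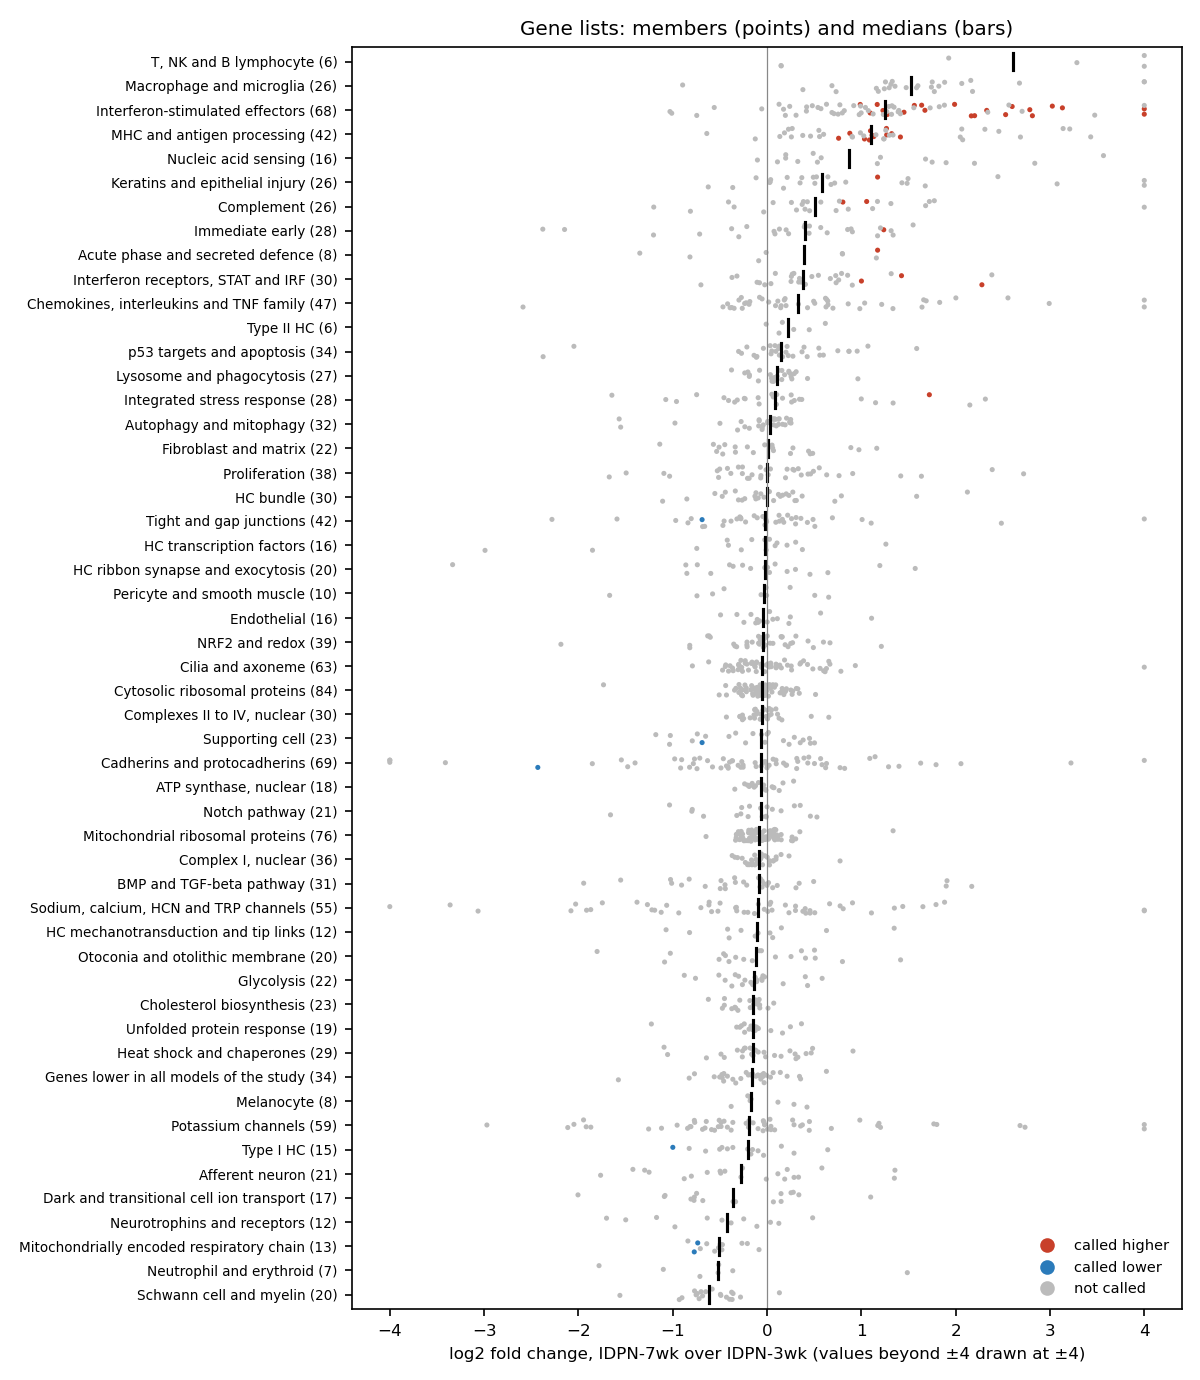
Log2 fold change of IDPN-7wk over IDPN-3wk for each tested member (points) of 52 gene lists, with the number of members in parentheses, a black bar at each median, upregulated DEGs in red and downregulated DEGs in blue. Lymphocyte, macrophage, ISG and MHC lists have the highest medians, Schwann cell, neutrophil and erythroid and mitochondrially encoded lists the lowest, and most other medians lie near 0. In the lymphocyte list, Cd8a, Il2rb and Ccl5 passed the filter on low counts through the IDPN-7wk libraries.

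Set beside the shared controls, most DEGs lay on the same side of control at both times by their mean CPM. Of the 54 upregulated DEGs, 39 lay above control at both times and farther from it at 7 weeks, 14 lay below control at 3 weeks and above it at 7 weeks, and 1, Selplg, lay below control at 3 weeks and just above it at 7 weeks. Of these 54, 52 were DEGs above control at 7 weeks and 4 at 3 weeks, against 2% and 0.438% of all genes. Of the 21 downregulated DEGs, 15 lay below control at both times and farther at 7 weeks, 4 crossed from above control to a point farther below it, Qpct crossed to a point nearer to control, and Mical1 crossed to about the same distance below it. Of these 21, 19 were DEGs below control at 7 weeks and 4 at 3 weeks, against 3.13% and 1.21% of all genes. The IDPN-7wk and IDPN-3wk libraries enter these counts as well as the choice of the DEGs, so the counts describe the DEGs and do not test them.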

How the data were processed

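RNA from the vestibular epithelia of 9 rats was sequenced after oligo-dT SMARTseq2 amplification without molecular identifiers, 3 libraries in each of 3 groups. The authors aligned the reads and deposited an estimated count per gene, in whole numbers, for 32883 Ensembl genes of rat build Rnor6.0. The submitters' processing notes name STAR 2.5.3a for alignment and RSEM 1.3.0 for quantification, and the strand setting is not given in the sources used here. RSEM divides reads that fit several genes, which makes single members of multigene families uncertain. Totals ran from 31100118 to 46018385 counts, and the floor of 3 counts covers counting error only.

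Groups came from the sample titles, and replicate numbers follow the order of the samples and pair no animals. Genes were filtered with filterByExpr (15517 kept), normalized with TMM and tested with the robust quasi-likelihood test of edgeR 4.0.16 (limma 3.58.1, R 4.3.3) in a fit of all 9 libraries with 6 residual degrees of freedom, for the contrast IDPN-7wk minus IDPN-3wk. The Benjamini-Hochberg adjustment ran over all genes tested. DEGs are genes past 1.5-fold with adjusted p under 0.05. SE is the log2 fold change divided by the root of the F statistic. CPM values are TMM-normalized, and groups are given as mean ± SD (n = 3). Some symbols stand for several genes (4258 entries share a symbol), and these are matched by identifier. Exact permutation of 3 against 3 libraries cannot go below p = 0.1 and was not used. DESeq2 1.42.0 was an alternative. The scripts were tested on simulated data. No library was a copy of another.

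The text names the 15 DEGs with the smallest p in each direction that carry a symbol, the 8 with the largest fold change in each direction, the DEGs of each of 52 gene lists or else members with the smallest p, and genes the study names for late exposure. The comparison, its genes and the lists were chosen with earlier results of these data known. Alternatives were another normalization, other filters and thresholds, a fit of the 6 IDPN libraries, a covariate for the libraries with fewer detected genes, the stem of the animal code as a block, and leaving out libraries. The promoters are from RefSeq, build GRCr8, matched by symbol. No coordinates of the genes in Rnor6.0 are given. Some genes the rule selects are not reported here.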

Additional observations from a re-analysis of the deposited data

How the results depend on the processing

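No named DEG changed its direction under the alternatives run. Where libraries were left out, this follows from the choice of DEGs, whose IDPN-3wk and IDPN-7wk libraries did not overlap. Against 75 DEGs (54 higher, 21 lower), DESeq2 gave 527 (248 and 279), a filter of at least 10 counts in every library 123 with 44 lower, no filter 38 lower, the 6 IDPN libraries alone 46 with 7 lower, and a fold change above 2 gave 9 lower. The covariate for libraries with fewer detected genes gave 37 (34 and 3). Leaving out 1 library gave 39 to 445 DEGs, 33 to 215 higher and 6 to 230 lower. Leaving out IDPN-3wk replicates 2 and 3 together gave 827 (588 and 239), and that pair holds 1 library of each kind. The next 3 alternatives were chosen after seeing the data. Without both IDPN-3wk libraries with fewer detected genes 2 DEGs remained (2 and 0), with 1003 genes at an unadjusted edgeR p under 0.05, and without all 3 such libraries 54 DEGs (48 and 6), 28 of them among the 75. With the stem of the animal code as a block, 232 DEGs (143 and 89) were called on 4 residual degrees of freedom. The IDPN-3wk library that the block fit rests on is among those with fewer detected genes, and the IDPN-7wk library is not. A lone IDPN-3wk library is assumed to vary like the other groups. The cause of these differences was not tested. Of the genes the rule selects that were not DEGs, 6 changed sign. The Mrpl3 log2 fold change was 0.046 with the stem as a block. Without both IDPN-3wk libraries with fewer detected genes and without all 3 such libraries, the log2 fold changes became 0.081 and 0.080 for Tbx2 and 0.21 and 0.20 for Abcc9. They became 2.99 and 2.98 for Cebpb (0.81 with the covariate), and 0.25 and 0.25 for Anxa1 (0.36 with the covariate). Atf4 gave -0.12 without IDPN-3wk replicates 2 and 3. Leaving out 1 library gave -0.073 to 0.23 for the Atf4 log2 fold change and -0.27 to 0.098 for Anxa1. RLE size factors gave 75 DEGs again. No paired analysis was possible because the labels give no replicate numbers that the groups share, and what the stem of the code stands for is not stated.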
